A study of Homo sapiens with 2 samples.

Results

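A group of 501 DMSO peaks with a high local background was described, taken from the 15186 DMSO peaks on chromosomes 1 to 22 and X, of which they made up 3.30%. They came from ChIPmentation, a chromatin immunoprecipitation in which Tn5 transposase inserts the sequencing adapters into the captured chromatin. The cells were PANC-1, a widely used human line grown from a carcinoma of the pancreatic duct. One sample had been treated with DMSO, the solvent, and 1 with inflachromene, a small molecule that binds the chromatin proteins HMGB1 and HMGB2. The cells of both samples were crosslinked with EGS and then with formaldehyde. The labels used here state neither what the antibody bound nor how much compound was given or for how long, and they name no genotype difference. Each treatment had 1 sample, so no difference has a replicate check, no test was made, and every comparison is between these libraries and not between conditions.

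A peak caller compares the pileup, the number of fragments that cover a summit, with a background expected there. MACS2 takes that background from the coverage around the peak where this exceeds a genome-wide value. A high background marks a stretch rich in fragments. The labels name no control library, so a peak's own fragments can be part of its background. Multi-copy genes, gained chromosome segments, long transcribed or densely bound genes, and single tall and wide peaks can all give a high value. Pileup and background were both recovered from the deposited fold enrichment and p-value, and are given in fragments per base. The members were selected on this DMSO background, of 6 or more, which is 9.21 times the lowest value of the library, 0.651. The segment chr19:38000000-41000000 was left out by the rule. It held 132 DMSO peaks, 83 of them with such a background. Positions are in hg38, counted from 1.

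The members were found on 22 of the 23 chromosomes, with none on chromosome 22. Chromosome 11 held 83 of them, 8.78% of its DMSO peaks, against 3.30% over all. Chromosome 1 held 79 (4.72%), chromosome 19 held 60 (5.21%) and chromosome 17 held 51 (5.30%). Chromosome 4 held only 1. The background of the members ran from 6.003 to 33.2 with a median of 7.58, against a median of 1.96 among the 14553 other DMSO peaks outside the segment. Just inside the minimum lay 13 peaks with backgrounds of 6.003 to 6.048 and a median pileup of 40, and just outside it 8 peaks of 5.965 to 5.995 with a median pileup of 60.5. These values chose the members and are given as a description. The DMSO list held peaks at the ends of 4 of 6 ductal marker genes (KRT8, KRT18, KRT19 and SOX9, but not KRT7 or EPCAM). It held none at the 17 acinar, islet, immune, stromal and endothelial markers, and no member lay at any of the 23.

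**Figure D1:**
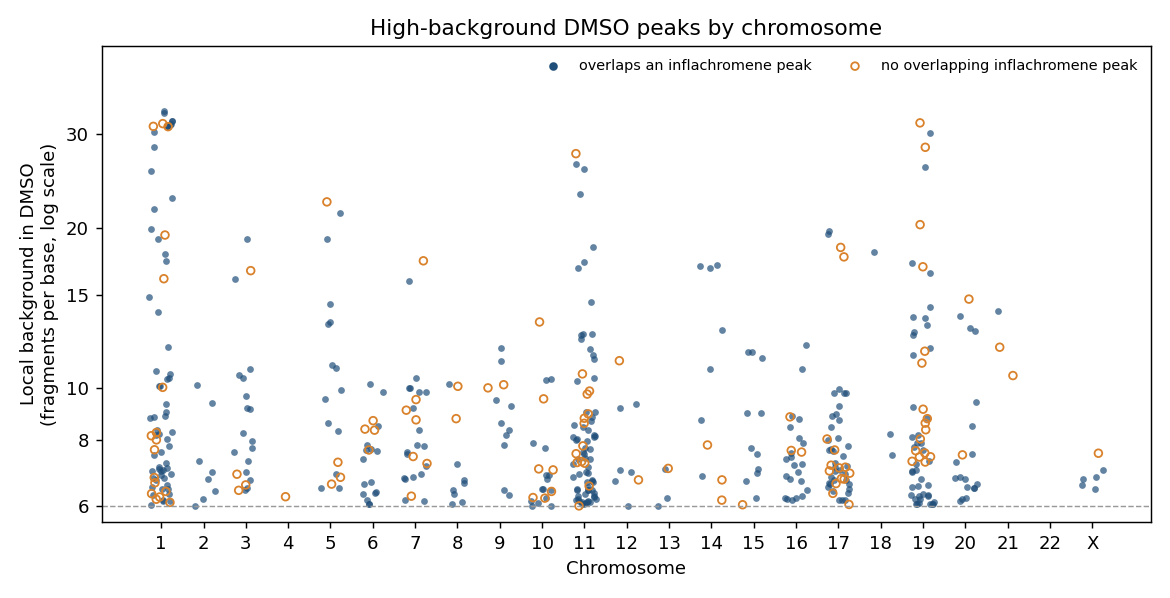
Each point is 1 of the 501 high-background DMSO peaks, placed by chromosome and by its local background in fragments per base on a log scale. Filled points overlap an inflachromene peak and open points do not, and the dashed line is the minimum of 6. The points above 30 lie on chromosomes 1 and 19.

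Promoter windows are printed for 5 immediate early and AP-1 genes with a member at the start, since the list of these genes held members more often than any other protein-coding list. Such genes encode transcription factors and phosphatases that cells switch on within minutes of a stimulus. Each runs from 250 bases before the start to 50 after it, is taken from RefSeq for GRCh38.p14, and was picked for holding 1 of the motifs named here, which not every window of these genes does. In capitals are the CArG box, the site of serum response factor, in EGR1, the sequence TGACGTCA (the cyclic AMP response element) in DUSP1 and JUND, TGACTCA (the AP-1 site) in FOSL2, and TATAAA where it occurs. Both strands were searched. A match is a description of the letters and not a bound site. A member counted at a start when its summit lay within 1000 bp of it, so a window can lie beside the peak. The FOSB window lies wholly outside the peak at its start, chr19:45468190-45468444. In EGR1 the peak at the start ends at chr5:138465351, before both CArG boxes.
EGR1 promoter, chr5:138465229-138465528, plus strand: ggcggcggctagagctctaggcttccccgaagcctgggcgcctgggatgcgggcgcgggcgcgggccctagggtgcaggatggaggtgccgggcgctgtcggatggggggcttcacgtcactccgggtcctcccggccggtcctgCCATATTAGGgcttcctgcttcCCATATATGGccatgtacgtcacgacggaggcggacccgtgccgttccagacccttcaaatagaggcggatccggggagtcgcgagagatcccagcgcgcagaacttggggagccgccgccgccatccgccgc
DUSP1 promoter, chr5:172771146-172771445, minus strand: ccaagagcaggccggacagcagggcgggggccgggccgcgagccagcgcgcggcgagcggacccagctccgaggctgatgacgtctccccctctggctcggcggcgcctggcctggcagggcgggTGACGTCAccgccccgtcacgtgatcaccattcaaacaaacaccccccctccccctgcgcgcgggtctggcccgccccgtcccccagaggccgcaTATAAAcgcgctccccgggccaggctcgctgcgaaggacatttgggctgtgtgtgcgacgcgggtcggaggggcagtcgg
JUND promoter, chr19:18281573-18281872, minus strand: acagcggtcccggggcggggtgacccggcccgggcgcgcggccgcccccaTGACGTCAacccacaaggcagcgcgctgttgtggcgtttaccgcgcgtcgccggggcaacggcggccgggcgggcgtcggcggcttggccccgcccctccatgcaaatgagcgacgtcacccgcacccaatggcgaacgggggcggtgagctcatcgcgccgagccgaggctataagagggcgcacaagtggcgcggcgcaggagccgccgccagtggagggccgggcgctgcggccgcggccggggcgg
FOSL2 promoter, chr2:28392608-28392907, plus strand: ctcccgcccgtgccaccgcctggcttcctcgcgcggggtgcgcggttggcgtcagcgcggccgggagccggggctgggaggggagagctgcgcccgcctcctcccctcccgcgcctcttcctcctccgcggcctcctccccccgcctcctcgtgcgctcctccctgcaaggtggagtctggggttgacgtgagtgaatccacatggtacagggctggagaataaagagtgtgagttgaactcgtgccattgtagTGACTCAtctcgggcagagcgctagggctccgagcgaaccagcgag
FOSB promoter, chr19:45467746-45468045, plus strand: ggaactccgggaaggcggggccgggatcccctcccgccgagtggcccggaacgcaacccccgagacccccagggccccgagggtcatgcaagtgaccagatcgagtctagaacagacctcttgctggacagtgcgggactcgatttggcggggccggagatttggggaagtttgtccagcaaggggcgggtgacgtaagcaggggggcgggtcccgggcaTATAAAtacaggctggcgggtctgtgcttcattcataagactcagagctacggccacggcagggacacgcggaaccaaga

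Other members lay beside hosts of microRNAs, whose mature sequences follow with the seed, bases 2 to 8, in capitals. MIR23A, MIR27A and MIR24-2 are cut from 1 transcript, MIR23AHG, and MIR21 lies at the end of VMP1. The 4 microRNAs have different seeds.
hsa-miR-23a-3p: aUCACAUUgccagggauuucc
hsa-miR-27a-3p: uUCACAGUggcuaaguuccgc
hsa-miR-24-3p: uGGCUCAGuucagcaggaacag
hsa-miR-21-5p: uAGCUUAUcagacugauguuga

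The highest backgrounds lay at the genes of 5S ribosomal RNA, the small RNA of the large ribosomal subunit, which RNA polymerase III transcribes from a tandem array on chromosome 1. The 17 copies, RNA5S1 to RNA5S17, each 121 bp long, follow each other at intervals of 2215 to 2242 bp. Each of them had a DMSO peak, and all 17 peaks were members. The other member of the locus, chr1:228608466-228608852, lay at no annotated gene and had the lowest background there, 16.1. Of the 10 members with the highest background in the whole set, 9 lay at 5S copies and the other in MIR23AHG. The summit lay 52 to 171 bp from the centre of the gene, at 90 or 84 bp for most copies. The DMSO pileup ran from 72 at RNA5S15 to 101 at RNA5S3, with a median of 91, and the background from 19.1 at RNA5S17 to 33.2 at RNA5S12. The backgrounds were lower at both ends of the array than in its middle.

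In inflachromene 14 of the 17 copies had a peak, with pileups of 52 to 74 and a median of 66. RNA5S5, RNA5S9 and RNA5S15 had none. The ranges of pileup in the libraries did not separate entirely, since 74 at RNA5S11 in inflachromene exceeded 72 at RNA5S15 in DMSO, but at each of the 14 copies with both peaks the inflachromene value was the lower. The inflachromene background ran from 14.02 to 25.2, and the median ratios of inflachromene to DMSO were 0.720 for pileup and 0.755 for background. Over all shared DMSO peaks the pileup was lower in 74.7%, with a median ratio of 0.833. Peaks without an inflachromene partner made up 35.5% of all DMSO peaks. The copies are near-identical, and the labels do not say how the authors assigned reads that fit several copies, so the value at a single copy is uncertain.

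**Figure D2:**
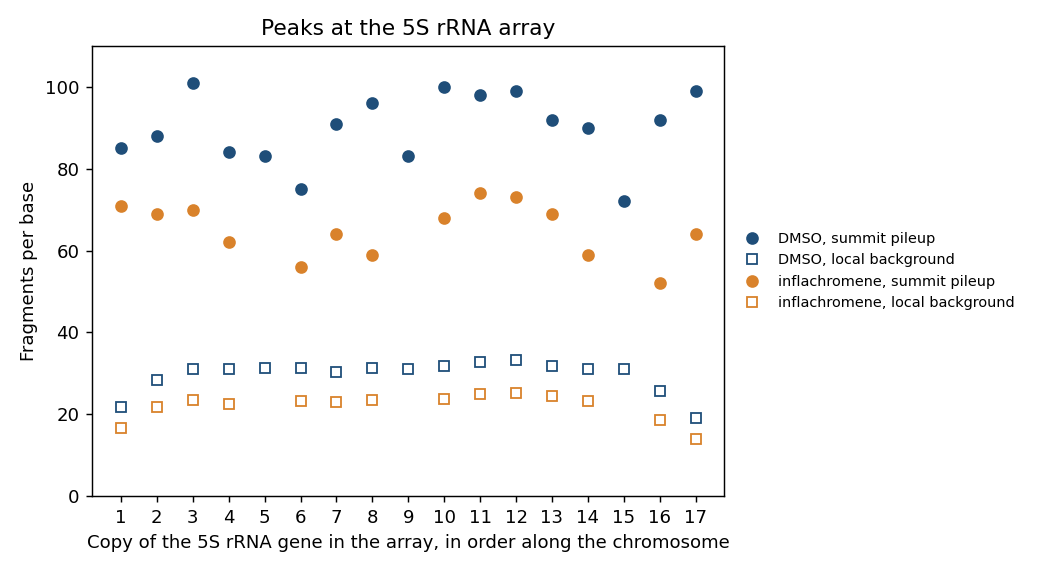
Summit pileup (filled circles) and local background (open squares), in fragments per base, at the 17 copies of the 5S rRNA gene in their order along chromosome 1, for DMSO and inflachromene. The DMSO circles lie above the inflachromene circles at all 14 copies that have both, and copies 5, 9 and 15 have no inflachromene circle.

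Further members lay at small nuclear RNA genes, whose products build the spliceosome. For each gene list, a peak was counted at a gene when its summit lay within 1000 bp of either end. Of 154 genes of this class, 41 had a DMSO peak and 17 had a member, and 20 members (3.99%) lay at such genes against 0.192% of other DMSO peaks. The U1 gene RNU1-1 (peak chr1:16512530-16514638) had a background of 22.8 and a pileup of 185 in DMSO (95% Poisson interval 159 to 214) and of 136 in inflachromene (114 to 161). RNU1-2, at chr1:16895890-16897738, went from 197 to 164, RNU1-3 from 146 to 124 and RNU1-4 from 157 to 132. Among 11 members at U1 and U1-like genes, 9 had an inflachromene peak, and all 9 were lower there, with a median pileup ratio of 0.735. Of all DMSO peaks 64.5% had an inflachromene peak, and 74.7% of these were lower. The U1 peaks reached 2261 bp, the widest of all DMSO peaks. RNU5E-1 went from 99 to 76, RNU4-2 from 66 to 50 and RNU2-2 from 81 to 72, while RNU5B-1 held 74 in both libraries. Across the 7 members at genes of U2, U4, U5 and U11, 6 were lower in inflachromene and the median ratio was 0.810.

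Transfer RNA genes, which RNA polymerase III transcribes too, had an end within 1000 bp of 18 member summits (3.59%, against 1.31% of other peaks). Of 429 such genes 25 had a member and 233 a DMSO peak. TRG-CCC1-1 carried the highest background of them, 10.8, and its pileup was 175 in DMSO and 135 in inflachromene. TRG-CCC1-2 held 163 and 119. At replication-dependent histone genes, 12 of 68 (17.6%) had a member and 51 a DMSO peak, in groups on chromosomes 1 and 6. Members lay at 1.16% of all protein-coding genes and at 2.54% of those with a DMSO peak, where the histone share was 23.5%. Near H2AC19 the highest pileup was 55 in DMSO and 37 in inflachromene. Small nucleolar RNA genes had a member in 3 of 1196 cases (0.251%), and the 7SK and 7SL genes, all 4 of which had a DMSO peak, had none. The 3 peaks at small nucleolar RNA genes were 0.599% of members, against 0.213% of other DMSO peaks.

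Copied protein-coding sequence was the next kind. Members lay at 6 genes and pseudogenes of the FAM86 family, of which EEF2KMT encodes a methyltransferase of elongation factor 2. Their DMSO pileups ran from 122 at FAM86C2P to 181 at FAM86GP, their inflachromene pileups from 86 to 150, and all 6 were lower in inflachromene, with a median ratio of 0.814, beside 74.7% and 0.833 over all shared DMSO peaks. Another 4 members lay at the MIR3180 copies beside PKD1 and its pseudogenes on chromosome 16, with DMSO pileups of 107 to 125, inflachromene pileups of 69 to 84 and a median ratio of 0.667. Within either family the peaks were alike in width, 811 to 921 bp and 574 to 629 bp. The same uncertainty about shared reads applies to them, to the U1 genes and to the tRNA genes.

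Immediate early and AP-1 genes made up the densest of the protein-coding lists. Of its 22 genes, 20 had a DMSO peak and 13 had a member (59.1%), where 232 of 19970 protein-coding genes (1.16%) had one. The list was drawn up with earlier results of these data known. The 13 were DUSP1, EGR1, FOS, FOSB, FOSL1, FOSL2, IER2, IER3, JUN, JUNB, JUND, KLF10 and KLF6. The 7 with a DMSO peak and no member were BTG1, BTG2, IER5, KLF2, KLF4, MYC and ZFP36, and ZFP36 lies in the excluded segment. EGR1, a zinc finger factor, had a peak at its start, chr5:138464625-138465351, with 51 fragments in DMSO and 53 in inflachromene. A peak of 1500 bp at its 3′ end, chr5:138469586-138471085, held 75 and 64, over backgrounds of 21.4 and 19.3. DUSP1, a phosphatase that switches off MAP kinases, had 79 fragments in DMSO and 82 in inflachromene at its start, chr5:172770982-172771502.

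FOSB, an AP-1 subunit, had 3 members. The highest background among them, 28.4, lay under the peak chr19:45474833-45475055 with 59 fragments, which had no inflachromene peak. The peak next to it, chr19:45475688-45476058, held 76 fragments in DMSO and 64 in inflachromene, and the one at the start held 38 and had no inflachromene peak. FOSL1, which encodes the AP-1 subunit FRA1, had 150 fragments in DMSO and 126 in inflachromene at chr11:65900095-65900740. A member between its other end and CCDC85B, chr11:65891306-65891516, held 65 fragments over a background of 27.6 and had no overlapping inflachromene peak. JUN, the partner of the FOS proteins, held 144 and 118, KLF6, a zinc finger factor, 98 and 74, and JUND 56 and 44. JUNB had a pair of members that went opposite ways, from 35 to 24 and from 34 to 43.

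Of the 19 members at these genes, 16 had an inflachromene peak. The pileup was lower in inflachromene at 11, higher at 4 and equal at 1, where 74.7% of all shared DMSO peaks were lower. The background was lower at all 16, as it was at 93.6% of the shared members, which were chosen for a high DMSO background, and at 65.5% of all shared DMSO peaks. At all 16 the Poisson intervals of the pileups overlapped, so no single difference exceeded counting error by that measure. The median pileup ratio was 0.848.

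**Figure D3:**
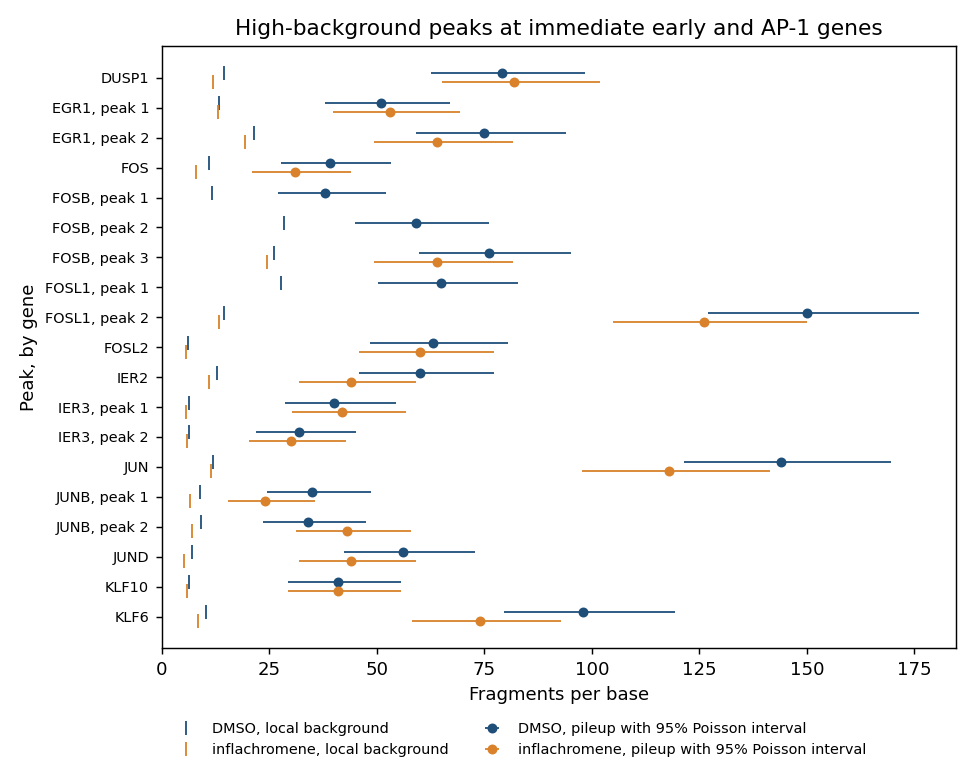
Pileup at the summit (points with 95% Poisson intervals, which cover counting error only) and local background (vertical ticks), in fragments per base, for the 19 high-background peaks at ends of immediate early and AP-1 genes. FOSB peaks 1 and 2 and FOSL1 peak 1 have no inflachromene value, and all other intervals overlap between the libraries.

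Genes of the cytoskeleton and of adhesion had a member in 6 of 20 cases (30%) and a DMSO peak in 16. Of all protein-coding genes 1.16% had a member. CCN1, a secreted matrix protein, held 179 fragments at its start in DMSO (154 to 207) and 114 in inflachromene (94.0 to 137), over backgrounds of 19.9 and 17.2. ACTB, which encodes beta-actin, had the lowest pileup ratio of all shared members, 0.494, with 77 fragments in DMSO (60.8 to 96.2) and 38 in inflachromene (26.9 to 52.2), while its background was 9.82 in DMSO and 9.62 in inflachromene. VCL, the adhesion protein vinculin, held 136 and 98 and CFL1, the actin-severing cofilin, 42 in both. VIM, the intermediate filament vimentin, held 40 and 39 at the member within 1000 bp of its start or 3′ end, and 48 and 29 further inside. Among abundant long noncoding RNAs, MALAT1, NEAT1 and MIR22HG of 14 genes (21.4%) had members. Counted by peaks and not by genes, ends of any long noncoding RNA gene held 15.2% of members and 17.4% of other DMSO peaks. The share of all such genes with a member was not computed, so the 21.4% has no like value beside it. MALAT1, a nuclear RNA kept in splicing speckles, held 96 fragments at its start in DMSO and 77 in inflachromene. A peak of 1814 bp at its 3′ end held 93 and 88 over a DMSO background of 25.9. Among shared members of chr11:64240921-66328643, which takes in MALAT1, the highest inflachromene background was 27.9. NEAT1, the scaffold of paraspeckles, had a background of up to 18.4. Heat shock genes with members were HSPA1A and HSPA1B, of 11 genes (18.2%), and HSPA1B held 186 fragments in DMSO and 152 in inflachromene. Cytosolic ribosomal protein genes had members in 5 of 84 cases (5.95%), and 74 had a DMSO peak. RPS12, with 251 fragments in DMSO and 173 in inflachromene, was the highest.

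Of 34 genes often gained in cancers, 22 had a DMSO peak within 1000 bp of an end. None had a member there, where 1.16% of all protein-coding genes and 2.54% of those with a DMSO peak had one. Beside shares that small nothing is read from the count. AKT2 among them lies in the excluded segment. The others with a peak at an end included MYC, CCND1, ERBB2, MET and EGFR. ZNF217, also on the list, had 2 members inside the gene and away from its ends, at chr20:53593700-53594758.

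Grouped by position, with summits joined when they lay within 1 Mb of the next, the members formed 143 loci. Of these 52 had 1 member, 31 had 2 and 60 had 3 or more, and the 60 held 387 members (77.2%). The largest was chr11:64240921-66328643 with 29 members, among them those of FOSL1, MALAT1, NEAT1 and CFL1. Next came chr11:207302-1572525 with 25, at HRAS, PTDSS2, MUC5B and others, and chr19:53867435-55675258 with 24, at MYADM, CACNG8, MBOAT7 and RPL28. Loci of 18 members each were the 5S array, chr16:679914-3188137 at PKD1, STUB1 and TRAF7, and chr17:7573729-8223168 at KDM6B, CD68, EIF4A1 and tRNA genes. The locus of ACTB, FSCN1 and TNRC18 on chromosome 7 had 13, that of ID1 and ASXL1 on chromosome 20 had 10, and 9 each lay at MIR31HG, at JUNB, IER2 and MIR23AHG, and at WEE1, ADM and SBF2. Wide loci such as the first 3 held many other DMSO peaks too, 105, 61 and 73 peaks in all within their spans.

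The other loci on chromosome 1 were those of HES4 and SCNN1D, PLCH2 and TTC34, the U1 genes, ID3, CCN1 and BCL10, the RNVU1 genes, the histone genes, and S100A10. Chromosome 10 had those of VIM, VCL and VDAC2, NFKB2 and SUFU, and INPP5A. Chromosome 11 had PHLDA2 and NUP98, RNU2-2 and AHNAK, CDK2AP2 and PITPNM1, and BCL9L besides. On chromosomes 14 and 15 they were AHNAK2 and CRIP2, ANXA2, and SIN3A. Chromosome 17 had MNT and MIR22HG, SREBF1 and RAI1, NEK8 and TLCD1, HOXB5 and KPNB1, VMP1, KCTD2, SEPTIN9, and ACTG1 and ARHGDIA. Chromosome 19 had CIRBP and GPX4, JUND, COX6B1 and U2AF1L4, and FOSB and DMPK. The rest were HELZ2 on chromosome 20, MIR3648-2 and MIR10396A on 21, BHLHE40 and HES1 on 3, EGR1, DUSP1, DBN1 and GRK6, SQSTM1, and the TRL-AAG1 tRNA genes on 5. On chromosome 6 they were H2AC13, HSPA1A, EEF1A1 and FOXO3, on 7 IGF2BP3, on 8 KLF10 and PLEC, and on X EMD. Several had only 1 annotated gene at their members, such as SIN3A, SQSTM1, ANXA2 and IGF2BP3, and members there can lie inside the gene or beside it.

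Called peaks accounted for different shares of the background. Called peaks in the 10 kb around a member held a median of 30.3% of the background, against 21.6% around the other DMSO peaks, when each was counted as its width times 0.5 of its summit pileup, and 60.5% with the full summit pileup, which is an upper bound. By that bound 72 members (14.4%) owed under 25% to called peaks, against 3385 (23.3%) of the other DMSO peaks. Those at FOSB, RRP12, NR4A1, LMNA and BCL9L were among them. RRP12, which works in ribosome export, had a background of 13.3, of which called peaks could hold 4.98%. In contrast 86 members had no other peak within 5 kb and called fragments that could fill 75% or more of the background. These were tall and wide, with a median pileup of 124 and a median width of 813 bp, and included RNU1-1, BHLHE40, ATP9B and WEE1. The group of 86 all had an inflachromene peak. Among the 40 lone members under 25% the share was 57.5% with a median pileup of 37, and among the 32 under 25% that had other peaks nearby it was 43.8% with a median pileup of 36.5. Pileup and this share moved together, and the part of pileup in the difference was not tested.

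More members than other peaks had company. Another DMSO peak lay within 5 kb of 330 members (65.9%), against 13.9% of the other peaks. The members were wider, with a median of 402 bp against 303, and 32 (6.39%) exceeded 1000 bp against 0.295%. Their median pileup was 53 against 23, but their median fold enrichment was 5.504 against 7.95. Neighbouring peaks, pileup, width and fold are all tied to the background that chose the members, so these differences are descriptions.

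Gained segments were sought with isolated peaks, which are narrower than the list's median and lie over 10 kb from any other peak. Outside the segment, those with a background of 6 or more in their own list were left out. Outside the segment the median was 1.45 in DMSO (5254 peaks) and 1.61 in inflachromene (4172). Inside the chromosome 19 segment the medians were 4.30 (14 peaks) and 4.52 (16), or 2.97 and 2.81 times as high. Peaks with a background of 6 or more were kept there, which favours higher ratios for the segment than for the loci. Of the 60 loci, 54 had at least 3 isolated peaks within 1 Mb in both lists. The median ratio over them was 1.30 in DMSO and 1.27 in inflachromene, and at 47 it exceeded 1 in both.

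Isolated peaks were raised at least 1.5 times in both libraries around 5 loci, and 2 times in both around none. The locus of HRAS and PTDSS2 at the start of chromosome 11 had the highest ratios, 2.31 in DMSO and 1.96 in inflachromene. The neighbouring locus of NUP98 and PHLDA2 had 2.12 and 1.57. The 1 Mb around it overlaps the 1 Mb around the HRAS locus, so the same isolated peaks can count for both. The locus of ACTB had 1.70 and 1.53 and that of ID1 1.57 and 1.59. That of FOSL1 and MALAT1 stood at the limit of 1.5 in DMSO and at 1.57 in inflachromene. In contrast the ratios were 0.989 and 1.04 around the 5S array, 0.958 and 0.923 around JUNB and MIR23AHG, 0.926 and 1.03 around EGR1, and 0.889 and 0.753 around VMP1. The inflachromene ratio rests on 3 isolated peaks at VMP1 and on 4 at EGR1. Isolated peaks number 3 to 30 per locus, were called in the same libraries, and lie where genes are dense, so a copy-number gain and dense binding cannot be told apart by them.

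**Figure D4:**
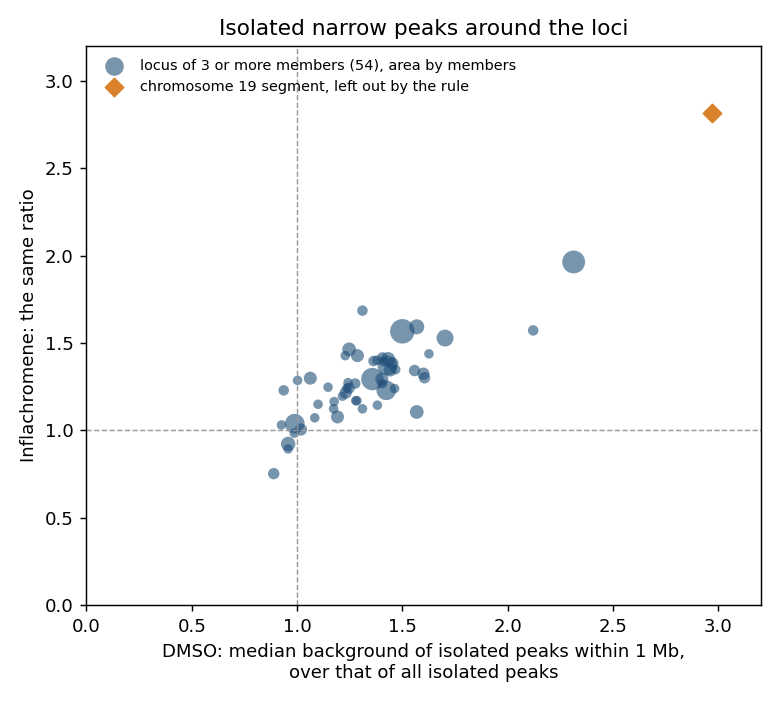
Each circle is a locus of 3 or more members, placed by the median background of isolated narrow peaks within 1 Mb divided by that of all isolated peaks outside the segment, in DMSO (horizontal) and inflachromene (vertical), with area by its number of members. The diamond is the chromosome 19 segment at 2.97 and 2.81, above every one of the 54 loci on both axes, and the dashed lines are at 1. Isolated peaks with a background of 6 or more were left out for the loci and kept for the segment, which favours higher values at the diamond.

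Members lay at ends of protein-coding genes less often than other peaks. Within 1000 bp of either annotated end lay 227 members (45.3%, exact interval 40.9 to 49.8), against 54.5% (53.7 to 55.3) of the other peaks. At starts of genes that the RefSeq promoter table lists lay 42.5% against 54.3%. At 3′ ends, with no listed start, lay 39 members (7.78%) against 1.92%. Inside coding genes and away from their ends lay 24.6% against 23.6%. No annotated gene was at or around 63 members. One of these, chr1:236097116-236097396, held 367 fragments in DMSO (330 to 407), the most of all members, and 272 in inflachromene (241 to 306). It was also the DMSO peak with the highest fold enrichment, 37.5.

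The promoter windows of 228 genes with a member at the start were searched for 10 motifs, of which the CArG box was added after the data had been seen. The shares are set beside those of 9884 genes with any DMSO peak at the start and of all 27195 windows. TATAAA was in 13.6% of the members' windows, in 3.77% of those with a DMSO peak and in 11.97% of all. TGACGTCA was in 6.58%, 3.90% and 1.98%, and the 15 windows that held it included DUSP1, JUND, SIRT4, ZNF143 and histone genes. TGACTCA was in 5.70%, 2.68% and 4.89%, with FOSL2, ANXA2 and SEPTIN9 among its 13. CCAAT was in 46.1%, 39.4% and 35.7%, and GGGCGG, the GC box, in 78.1%, 76.0% and 44.7%. CCGGAAG, the ETS site, was in 14.04%, 21.995% and 10.7%, GGAAGT in 22.8%, 28.3% and 23.2%, and the last letters of the former are the first letters of the latter, so 1 stretch can count for both. The E-box CACGTG was in 7.02%, 10.7% and 7.45%, and GGAATG, the TEAD site, in 10.1%, 9.80% and 14.04%. The CArG box was in 2.19%, 0.880% and 1.29%, at ACTG1, EGR1, H2AC20, H2BC21 and LOC124904208. Windows of neighbouring and divergent genes overlap and are not independent.

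Set beside inflachromene, 393 members (78.4%, exact interval 74.6 to 82.0) overlapped a peak of that list, against 63.9% (63.1 to 64.7) of the other DMSO peaks. The other 108 members had none, but 85 of them had an inflachromene peak within 5 kb. They were the weaker ones, with a median pileup of 34 and a median width of 218 bp, against 61 and 478 bp for members with a partner. How the members stood to other peaks depended on the measure of strength used for matching. In the lowest of 5 equal groups by fold enrichment 61.9% of 278 members had an inflachromene peak, against 29.0% of other peaks. In the highest of 5 by pileup 91.1% of 370 members had one, against 99.7% of other peaks, and in the group below it 45.8% of 118 against 90.7%. The members with the highest background and no partner were MIR23AHG, the RNA5S5, RNA5S9 and RNA5S15 copies, FOSB, FOSL1 and CCDC85B, a peak near DUSP1 (chr5:172766583-172766766), MYADM, CCN1 and a peak near MIR21 (chr17:59845699-59845852). Each of them had an inflachromene peak within 5 kb. At MIR23AHG that neighbour's background was 27.1 where the DMSO member had 31.5.

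At the summit, the inflachromene pileup was lower at 335 of the 393 shared members (85.2%) and at 74.1% of the other shared peaks, and the median ratio was 0.824 against 0.833 for other shared peaks. Where both pileups averaged 50 or more, the ratios were 0.814 for 231 members and 0.803 for 1010 others, and 89.2% of the former and 86.7% of the latter were lower. The lowest ratios after ACTB belonged to MUC5B, a secreted mucin, from 52 to 26, and JMJD1C, a protein of the JmjC family, from 112 to 58. PTDSS2, which makes phosphatidylserine, followed with 54 and 29, ATP9B, a lipid flippase, with 278 and 153, and LOC124905228 on X with 104 and 58. At PTDSS2 the Poisson intervals of both libraries overlapped, and at the other 4 genes and ACTB they did not. The highest ratio, 2.15, lay between FIZ1 and ZNF524, with 27 fragments in DMSO (17.8 to 39.3) and 58 in inflachromene (44.04 to 74.98). TTC34 followed at 1.43 (28 and 40), an unannotated peak at chr11:9613968-9614436 at 1.33 (64 and 85), CACNG8 at 1.30 (61 and 79), a further TTC34 peak at 1.28 (25 and 32) and MIR31HG at 1.28 (29 and 37). The CACNG8 value pairs a DMSO peak with an inflachromene peak that also overlaps its stronger neighbour, where 110 fragments in DMSO stood against the same 79.

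The ratio of the backgrounds has in its denominator the DMSO background that chose the members, so its values are a description. Its median was 0.872 at the members and 0.953 at other shared peaks. The lowest background of the library stood the other way, 0.683 in inflachromene against 0.651 in DMSO, a ratio of 1.05. Below that ratio lay 381 of 393 members (96.9%), against 77.3% of all shared DMSO peaks. Choosing on the DMSO side favours high DMSO values, so the same was computed from the other side. In the inflachromene list 289 peaks outside the segment had a background of 6 or more (2.67%), and 263 of them (91.0%) overlapped a member. Conversely 261 members (52.1%) overlapped such a peak. From this side, where the choice favours high inflachromene values, the median background ratio was 0.891, against 0.951 at 9417 other inflachromene peaks with a DMSO peak, and the pileup ratio was 0.838.

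By locus, the median background ratio was below 1 at 57 of the 60 and above it at 3. Taken singly, 93.6% of shared members and 64.3% of other shared DMSO peaks were below 1. The DMSO background that chose the members enters the locus values too. The lowest loci had 0.722 at ID3, 0.747 at AHNAK2 and CRIP2 and 0.755 at the 5S array. The 3 loci above 1 were MIR31HG at 1.12, PLCH2 and TTC34 at 1.09, and SQSTM1 at 1.02. At ID3 and at SQSTM1 the median rests on 2 shared members. At MIR31HG, the host of miR-31 on chromosome 9, the 9 members lay along chr9:21549327-21688543, and 7 of them had an inflachromene peak. The member at chr9:21549327-21549683 had a background of 8.34 in DMSO and 10.8 in inflachromene. That at chr9:21677933-21678243 had 7.84 and 9.12, with 53 fragments in DMSO and 49 in inflachromene. The strongest, chr9:21591671-21592042, had 80 and 68 fragments over backgrounds of 8.17 and 9.32. At both of the latter the pileup was the lower and the background the higher in inflachromene. At VMP1 the member nearest to MIR21 held 69 fragments in DMSO and 68 in inflachromene, and the backgrounds, 19.8 and 18.8, were also near each other.

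**Figure D5:**
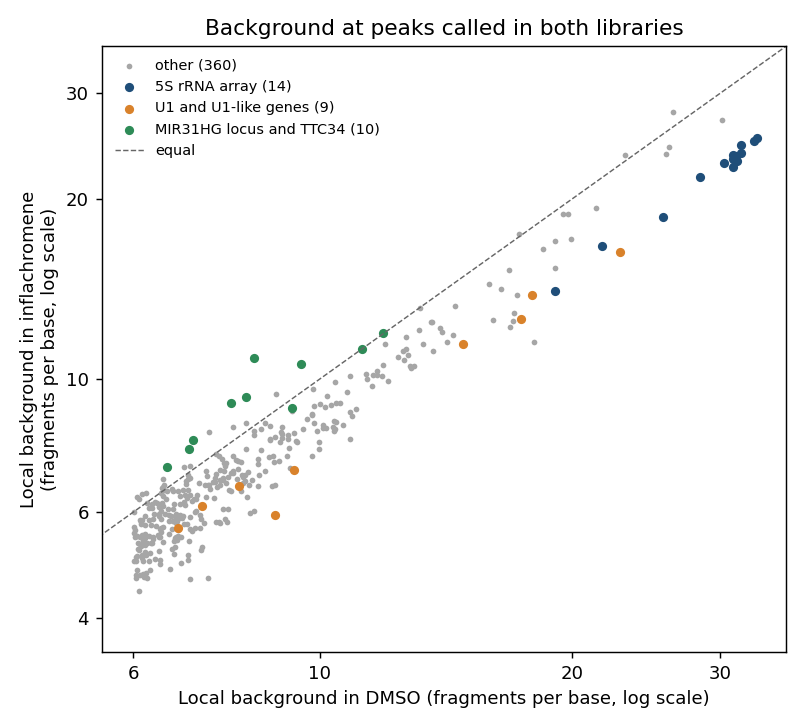
Local background in DMSO (horizontal) and inflachromene (vertical), in fragments per base on log scales, at the 393 members with an inflachromene peak. Most points lie below the dashed line of equal values, the 14 at the 5S array among them, and the points of the MIR31HG locus and TTC34 lie on, near or above it.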

How the data were processed

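ChIPmentation of PANC-1 cells gave 1 peak list for DMSO and 1 for inflachromene, and samples were grouped by the labels' treatment. The build was hg38 and the tools were MACS2 and deepTools 3.5.6, per the submitters' processing notes. The aligner, the handling of multi-mapped and duplicate fragments and the total depth are not given in the sources used. The deposited values per peak are a fold enrichment (a ratio), a −log10 p-value, a −log10 q-value and the position of the summit. Of 15354 DMSO and 10991 inflachromene rows, 15186 and 10836 on chromosomes 1 to 22 and X were used.

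The formulas of MACS2, a fold of (pileup + 1)/(background + 1) and a Poisson upper tail for the p-value, were solved for both unknowns, and a whole pileup matched every peak within 0.001. The formulas are inferred from the values, not stated by the authors. On simulated data made with the same formulas, 2000 of 2000 pileups were recovered. Peaks were shared when they overlapped by at least 1 bp, and the partner was the overlapping peak with the highest pileup. Gene positions, promoters and microRNAs came from RefSeq (GRCh38.p14, with the coordinates of hg38). Binomial intervals are Clopper-Pearson and pileup intervals exact Poisson, both 95%, and both cover counting error only. Python 3.11.15, numpy 2.4.6, pandas 2.3.3 and scipy 1.17.1 were used.

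The members and lists were chosen with earlier results of these data known. Named are the loci of 3 or more members, the 10 highest backgrounds, the 6 lowest and 6 highest pileup ratios, the 10 highest backgrounds without an inflachromene peak, and genes of the lists, of which some are not reported here. BHLHE40, NR4A1, RWDD1 and other single genes outside that rule, and the copy families and the groups by share of called peaks, were picked after their values had been seen. Alternatives changed the background minimum, the overlap rule, the q-value limit, the gene window and the joining distance.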

Additional observations from a re-analysis of the deposited data

How the results depend on the processing

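The number of members was 816 at a minimum background of 5 and 212 at 8, against 501 at 6. The share with an inflachromene peak was 73.5% when each peak had to cover 50% of the other, against 78.4%. The median background ratio was 0.855 at a minimum of 8 and 0.891 when chosen on the inflachromene background, against 0.872, and the pileup ratio chosen that way was 0.838, against 0.824. Without the 5S array they were 0.876 and 0.828. The choice on the inflachromene background and the removal of the 5S array were added after the data had been seen. The share at coding gene ends was 61.7% with a window of 2500 bp and 25.9% with one of 250 bp, against 45.3%, as a wider window takes in more summits. The share of background in called peaks was 60.5% with the full summit pileup, against 30.3% with 0.5 of it. Other settings gave 491 members at −log10 q of 5 or more, 584 with the chromosome 19 segment kept, and 61 loci of 3 or more when joined within 100 kb, 51 within 5 Mb and 87 at a minimum of 5, against 501 members and 60 loci. No paired analysis was possible because each treatment had 1 sample. Total depth is unknown, so the pileups of the libraries were not scaled, and Poisson intervals set the precision of each pileup.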

Other observations

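Single tall peaks at otherwise unremarkable genes made up part of the set. RWDD1 held 309 fragments in DMSO (275 to 345) and 227 in inflachromene (198 to 259). GOLGA5, which encodes a Golgi protein, held 233 (204 to 265) and 135 (113 to 160). FARP2, a guanine nucleotide exchange factor, held 225 (197 to 256) and 154 (131 to 180). PEG10, an imprinted gene derived from a retrotransposon, held 207 (180 to 237) and 146 (123 to 172). USP1, a deubiquitinase of the DNA damage response, held 192 (166 to 221) and 151 (128 to 177). The intervals of the libraries overlapped at USP1 and did not at the other 4 genes. None of these had another DMSO peak within 5 kb, and all 5 were picked for their pileup after the values had been seen.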
